A study of Mus musculus with 4 samples.

Results

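Wfdc17 and 4 related genes, Wfdc18, Wfdc21, Wfdc2 and Slpi, encode small secreted proteins with the whey acidic protein (WAP) domain, a fold held together by disulfide bonds between cysteines. These 5 genes, of 27998 in the count files, were chosen by their symbols, and the choice was made with their levels in Nup358 knockout and control libraries already known, so those levels are given as a description without a test. Slpi, the secretory leukocyte protease inhibitor, is known to block neutrophil elastase and cathepsin G, proteases that neutrophils store in their granules. Wfdc2 is best known as an epithelial secreted protein. Wfdc17 is known from activated macrophages. Many WAP proteins act on serine proteases or on bacteria, but the roles of Wfdc17, Wfdc18 and Wfdc21 are less settled.

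The cells were LSK cells, bone marrow cells sorted as Lin- Sca1+ cKit+, a fraction that holds the blood stem cells and the multipotent progenitors. They were counted in droplets by the 3′ ends of their transcripts, where each unique molecular identifier (UMI) stands for 1 captured molecule. Controls were Nup358 fl/fl mice, named wild-type in the labels, with 2 libraries. Knockouts were Nup358 fl/fl CreERT2 mice, also with 2 libraries, in which R26-CreERT2, a Cre recombinase made in every tissue, is switched on by tamoxifen, so the deletion was not limited to blood cells. Mice were 9 to 12 weeks old, both genotypes received tamoxifen, and each library pooled 3 bone marrows. The deletion removes exon 2 of Nup358 (Ranbp2), which 3′ counts do not read, and Ranbp2 stood at 127, 100.9, 124 and 126 counts per 1000000 UMIs (CPM) in control 1, control 2, knockout 1 and knockout 2, so it does not check the labels. The sort markers were Kit, at 73.3 to 103 CPM, and Ly6a, which encodes Sca1, at 133 to 317 CPM, both counted in every library.

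Many cell barcodes occurred in more than 1 library: 3139 of 9250 in control 1, 6677 of 6839 in control 2, 4394 of 4840 in knockout 1 and 3412 of 4313 in knockout 2. A barcode with 3 or more times as many UMIs in another library was treated as a copy, and 10936 of 25242 deposited barcodes (43.3%) were such copies, from 14.8% in control 1 to 81.8% in control 2. Values below leave them out, and values with all kept barcodes are given over all cells and, within gates, for Wfdc17 and Slpi where keeping the copies moved a level that a result rests on by more than 1.5 times. Barcodes found in another library with a smaller gap, or with the most UMIs, were kept, so the analysed cells were not free of shared barcodes. After this step 7830, 1200, 1589 and 3422 cells remained, with 59033602, 18846887, 32736147 and 53844729 UMIs. Control 2 stood apart for these genes: its Wfdc17 level was 3.71 times that of control 1, and the summed level of 8 mature neutrophil markers was 2234 CPM there against 366 in control 1, 130 in knockout 1 and 200.7 in knockout 2. In summed counts, fewer cells of a type and less RNA per cell cannot be told apart. Each library pools animals and nothing pairs them, so errors between genotypes rest on 2 pools per genotype, with a spread that edgeR estimates partly from other genes. Errors of a gate against other cells rest on differences within libraries.

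Wfdc17, Wfdc18 and Wfdc21 lie side by side on chromosome 11 of the mouse genome build GRCm38, and Wfdc2 and Slpi lie on chromosome 2. Wfdc17 (ENSMUSG00000069792) was annotated at chr11:83703991-83706268, Wfdc18 (ENSMUSG00000000983) at chr11:83709015-83711348 and Wfdc21 (ENSMUSG00000051748) at chr11:83746940-83752642, all on the plus strand with 3 exons, of which 2 hold coding sequence. Wfdc17 and Wfdc18 were 2746 bases apart. Slpi (ENSMUSG00000017002) was annotated at chr2:164354070-164389095 on the minus strand and Wfdc2 (ENSMUSG00000017723) at chr2:164562413-164568510 on the plus strand. The coding sequences of the chromosome 11 genes are shown because the same genes are followed together below. They are the spliced coding exons of the main GENCODE transcripts, 5′ to 3′, with the in-frame cysteine codons (TGT or TGC) in capitals.
Wfdc17: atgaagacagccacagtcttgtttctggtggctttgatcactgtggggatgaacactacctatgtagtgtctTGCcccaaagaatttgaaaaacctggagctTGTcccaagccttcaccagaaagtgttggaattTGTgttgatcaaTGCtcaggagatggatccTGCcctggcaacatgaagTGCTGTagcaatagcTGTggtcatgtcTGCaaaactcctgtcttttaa
Wfdc18: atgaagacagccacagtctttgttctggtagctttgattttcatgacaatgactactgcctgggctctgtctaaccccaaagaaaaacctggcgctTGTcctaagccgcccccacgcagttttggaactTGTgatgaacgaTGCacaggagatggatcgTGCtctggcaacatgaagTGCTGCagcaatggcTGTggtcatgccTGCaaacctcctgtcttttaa
Wfdc21: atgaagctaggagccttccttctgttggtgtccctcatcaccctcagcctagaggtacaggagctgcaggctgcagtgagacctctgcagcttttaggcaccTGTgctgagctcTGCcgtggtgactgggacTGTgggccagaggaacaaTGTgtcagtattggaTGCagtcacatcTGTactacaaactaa
Wfdc17 held 9 cysteine codons among 76, Wfdc18 held 8 among 74 and Wfdc21 held 6 among 63. Slpi held 17 among 131 and Wfdc2 held 18 among 174, both being proteins with a pair of WAP domains. Wfdc17 and Wfdc18 were identical at 186 of 234 aligned coding positions (79.5%), against 54.2% for Wfdc17 and Wfdc21. Over the last 500 bases of their transcripts, the end that the assay reads, the longest run shared by Wfdc17 and Wfdc18 was 30 bases, and Wfdc21 shared at most 9 bases with either.

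The stretches just before the annotated starts of Wfdc17 and Wfdc18 also align, and they are shown because both genes, as shown further on, had their highest mean level among the 6 larger gates in the same one. The windows are chr11:83703806-83703990 for Wfdc17 and chr11:83708754-83709003 for Wfdc18, plus strand, from RefSeq on GRCm38.p6, with the stretch that aligns locally in capitals.
Wfdc17: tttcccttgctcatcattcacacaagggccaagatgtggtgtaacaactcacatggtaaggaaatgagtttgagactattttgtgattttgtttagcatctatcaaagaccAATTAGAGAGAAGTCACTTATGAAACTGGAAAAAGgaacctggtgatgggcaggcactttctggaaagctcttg
Wfdc18: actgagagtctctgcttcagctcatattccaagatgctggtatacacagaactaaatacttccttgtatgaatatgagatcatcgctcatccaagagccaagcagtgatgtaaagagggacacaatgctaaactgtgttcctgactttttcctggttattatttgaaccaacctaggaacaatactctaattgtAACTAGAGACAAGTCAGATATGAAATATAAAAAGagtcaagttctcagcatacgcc
The aligned stretch ran over 35 columns with 28 identical bases and ended 39 bases before the GENCODE start of Wfdc17 and 33 bases before that of Wfdc18. The RefSeq start of Wfdc17 lies downstream of the GENCODE start, so only bases before both were used.

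Over all LSK cells, Wfdc17, Wfdc18 and Wfdc21 were each lower in both knockout libraries than in both controls, Wfdc2 was slightly higher in both, and Slpi overlapped. Wfdc17 stood at 91.9 and 341 CPM in the controls and at 28.2 and 22.0 in the knockouts. The control mean was 8.62 times the knockout mean, and the fitted log2 fold change was -3.16 ± 0.58 (SE, n = 2 and 2 libraries, edgeR). The gap between the controls was larger than that between the knockouts, and it set the size of the difference: without control 2 the log2 fold change was -1.90, and without control 1 it was -3.84. With all kept barcodes the 4 libraries held 92.2, 263, 37.4 and 23.4 CPM, a log2 fold change of -2.59.

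Wfdc18, the near copy of Wfdc17, was counted far less often. It stood at 3.18 and 15.02 CPM in the controls and at 0.947 and 1.08 in the knockouts, from 188, 283, 31 and 58 UMIs, with a log2 fold change of -3.16 ± 0.71 (SE). Wfdc21 stood at 7.11 and 35.9 CPM in the controls and at 2.14 and 2.51 in the knockouts, with a log2 fold change of -3.22 ± 0.72 (SE). In both genes control 2 was again the high library, and without it the log2 fold changes were -1.66 and -1.62. Wfdc2 stood at 3.90 and 6.26 CPM in the controls and at 7.70 and 6.95 in the knockouts, a log2 fold change of 0.51 ± 0.27 (SE) that was 0.15 without control 1 and 0.89 without control 2. Slpi stood at 123 and 63.7 CPM in the controls and at 137 and 111 in the knockouts, so the groups overlapped, with a log2 fold change of 0.38 ± 0.28 (SE). The Slpi value was 0.90 without control 1 and 0.00082 without control 2. With all kept barcodes the log2 fold changes were -2.62 for Wfdc18, -2.62 for Wfdc21, 0.49 for Wfdc2 and 0.28 for Slpi, each in the same direction as without the copies. The choice of the genes used this contrast, and nothing is read from their counts: over the 13779 genes tested, 24.5% had both knockouts below both controls and 29.9% had both above.

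**Figure D1:**
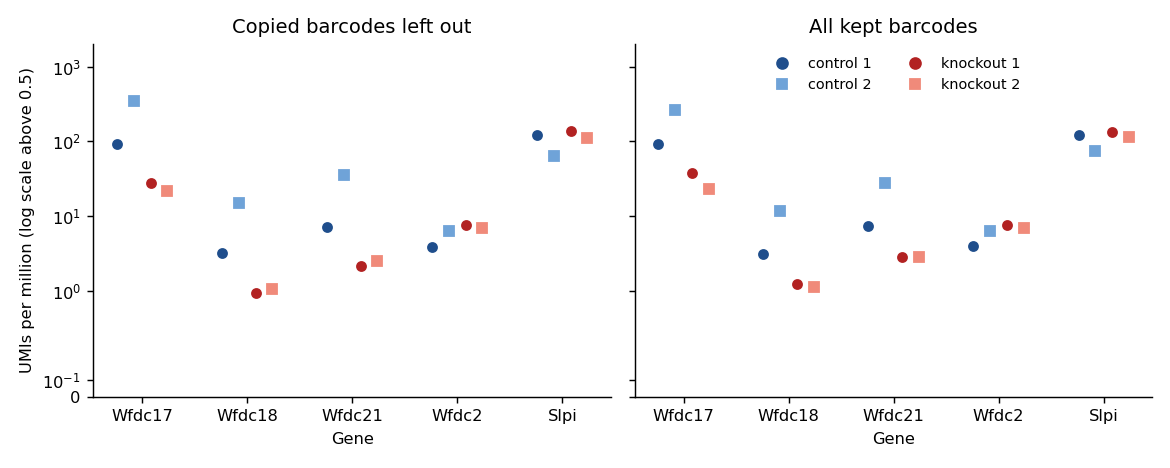
CPM (y axis, log scale above 0.5) of the 5 WAP genes in the 4 libraries, summed over all analysed cells, without copied barcodes on the left and with all kept barcodes on the right. Each point is 1 library, and in both panels the 2 knockout libraries (red) lie below the 2 controls (blue) for Wfdc17, Wfdc18 and Wfdc21, while Slpi overlaps.

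To place the genes among progenitor types, each cell was gated by lists of marker genes that contain none of the 5. A cell entered a gate with UMIs of at least 3 of its markers and at least 5 marker UMIs per 10000, and a cell that passed several went to the gate with the largest share of its list detected. Of 14041 cells, 1247 fell in the stem gate (Procr, Hlf, Mecom and others), 742 in the lymphoid gate (Dntt, Flt3, Il7r and others), 3835 in the neutrophil gate (Elane, Prtn3, Ctsg and others), 816 in the monocyte and dendritic gate, 335 in the megakaryocyte gate, 223 in the erythroid gate, 426 in the B cell gate, 122 in the plasmacytoid dendritic gate and 43 in the mature neutrophil gate (S100a8, Ngp, Camp and others). No gate was passed by 6134 cells. The B cell gate held 8, 5, 109 and 304 cells and the mature neutrophil gate 21, 9, 5 and 8 cells in the order of libraries used above, so their control or knockout values rest on few cells. Each gate was tested against all other cells of the same libraries by edgeR's quasi-likelihood test with the library as a block and Benjamini-Hochberg adjustment over all genes tested.

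Among the 6 gates with at least 20 cells in every library, the mean level of Wfdc17 was highest in the lymphoid gate (330 CPM) and lowest in the megakaryocyte and erythroid gates (12.9 and 21.8 CPM), although in knockout 2 the monocyte and dendritic gate was higher than the lymphoid one. In the lymphoid gate it stood at 254 and 912 CPM in the controls and at 91.6 and 63.0 in the knockouts. It was higher there than in the other cells in 4 of 4 libraries, by a log2 fold change of 1.78 ± 0.07 (SE, adjusted p = 9.41e-10, edgeR), in a comparison that called 7.02% of genes higher. In the erythroid gate, whose markers include Klf1 and the erythropoietin receptor, it stood at 15.1, 68.6, 0 and 3.54 CPM, a log2 fold change of -2.53 ± 0.21 (SE, adjusted p = 5.13e-07, edgeR) where 13.5% of genes were called lower. In the megakaryocyte gate it stood at 40.0, 0, 6.84 and 4.58 CPM, a log2 fold change of -2.35 ± 0.29 (SE, adjusted p = 2.30e-07, edgeR) where 10.6% of genes were called lower. By DESeq2 that megakaryocyte difference did not pass the threshold (log2 fold change -2.88, adjusted p = 0.108).

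Other gates follow, with the mature neutrophil gate given further on. In the monocyte and dendritic gate Wfdc17 stood at 98.4, 337, 66.4 and 122 CPM, and the difference from other cells did not pass the threshold (log2 fold change 0.75 ± 0.25 SE, adjusted p = 0.0615, edgeR), while it passed under 5 of 10 alternatives. In the stem gate it stood at 87.3, 334, 27.1 and 17.0 CPM and was slightly lower than elsewhere (log2 fold change -0.28 ± 0.08 SE, adjusted p = 0.0212, edgeR, with 19.4% of genes called lower), a call that was lost under 5 of 10 alternatives, among them without control 1 (adjusted p = 0.0584), knockout 1 (0.0513) or knockout 2 (0.0866). In the neutrophil gate it stood at 62.2, 165, 23.4 and 17.5 CPM, with a log2 fold change of -0.70 ± 0.13 (SE, adjusted p = 0.00294, edgeR) where 20.1% of genes were called lower. The B cell gate had no Wfdc17 UMI in the controls and 17.7 and 5.15 CPM in the knockouts (log2 fold change -1.88 ± 0.35 SE, adjusted p = 2.50e-06, edgeR, 9.30% of genes called lower). In a basophil and mast gate of 15, 3, 8 and 26 cells Wfdc17 stood at 24.9, 0, 11.8 and 0 CPM (-3.30 ± 0.45 SE, adjusted p = 3.01e-11, edgeR, 103 of 11343 genes called lower). The plasmacytoid dendritic gate stood at 0, 0, 13.6 and 28.3 CPM and did not pass (adjusted p = 0.130, edgeR). A macrophage gate of 11, 0, 8 and 13 cells stood at 90.0 CPM in control 1 and 80.6 and 20.2 in the knockouts. None of the 34 cells in a gate of T and NK cell markers had a Wfdc17, Wfdc18, Wfdc21, Wfdc2 or Slpi UMI. These cells were few and shallow: in knockout 2, with 14 cells at a median of 2239 UMIs, the exact 95% interval of the share of cells with a UMI reached 23.2%.

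Shares of cells with a UMI were also taken, although they move with depth. In the lymphoid gate, 157 of 238 cells of control 1 (66.0%, exact 95% interval 59.6 to 72.0) and 152 of 156 cells of control 2 (97.4%) had a Wfdc17 UMI, as had 51 of 78 (65.4%) and 141 of 270 cells (52.2%) of the knockouts. In the megakaryocyte gate, 13 of 186 cells of control 1 (6.99%) and 0 of 24 cells of control 2 had one. In the knockouts the counts were 2 of 24 and 5 of 101 cells (4.95% in knockout 2). Median depths there were 5314 UMIs per cell in control 1 and 15689 in knockout 2, against 6573 and 16846 in the lymphoid gate. A single megakaryocyte-gate cell of control 1 held 17 of the 47 Wfdc17 UMIs of that gate. How much of these counts was free RNA was not tested. Knockout cells were read more deeply than those of control 1, so shares were also taken after every cell was thinned to 2000 UMIs and gated again, which left out 254, 9, 86 and 212 cells with fewer UMIs. Among thinned neutrophil-gate cells, 215 of 2180 (9.86%) and 21 of 164 (12.8%) control cells and 2 of 119 (1.68%) and 3 of 112 (2.68%) knockout cells had a Wfdc17 UMI. Without thinning the same shares were 35.5% and 71.7% in the controls and 38.9% and 24.7% in the knockouts. Among thinned lymphoid-gate cells the shares were 21 of 44 and 11 of 18 in the controls and 0 of 7 and 6 of 28 in the knockouts.

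Among the same 6 gates Wfdc18 also had its highest mean level in the lymphoid gate, with 6.90, 62.4, 1.14 and 4.76 CPM from 12, 164, 2 and 23 UMIs (log2 fold change 2.40 ± 0.32 SE, adjusted p = 0.000104, edgeR, higher in 4 of 4 libraries). In control 2 a single lymphoid-gate cell held 41 of that library's 283 Wfdc18 UMIs. Wfdc18 was lower in the neutrophil gate, at 1.16, 2.10, 0.614 and 0.567 CPM (log2 fold change -2.10 ± 0.30 SE, adjusted p = 0.000803, edgeR). It was also lower in the monocyte and dendritic gate, at 1.75 and 3.39 CPM in the controls with no UMI in the knockouts (adjusted p = 0.0183, edgeR), where 6.85% of genes were called lower. The 43 and 26 knockout cells were too few to show a lower level. In them 3 UMIs would be 2.85 and 7.62 CPM, above the 0.978 and 1.09 CPM of the other knockout cells. Of the control 2 cells with a Wfdc18 UMI, 146 of 150 also had a Wfdc17 UMI (97.3%, against 64.1% of all its cells). In control 1 the count was 114 of 173 (65.9%, against 33.9% of all cells). These shares mix gates and depths. Within the lymphoid gate they lay closer, at 67 of 68 against 97.4% in control 2 and 9 of 12 against 66.0% in control 1. Within the neutrophil gate they were 11 of 12 against 71.7% in control 2 and 26 of 33 against 35.5% in control 1.

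**Figure D2:**
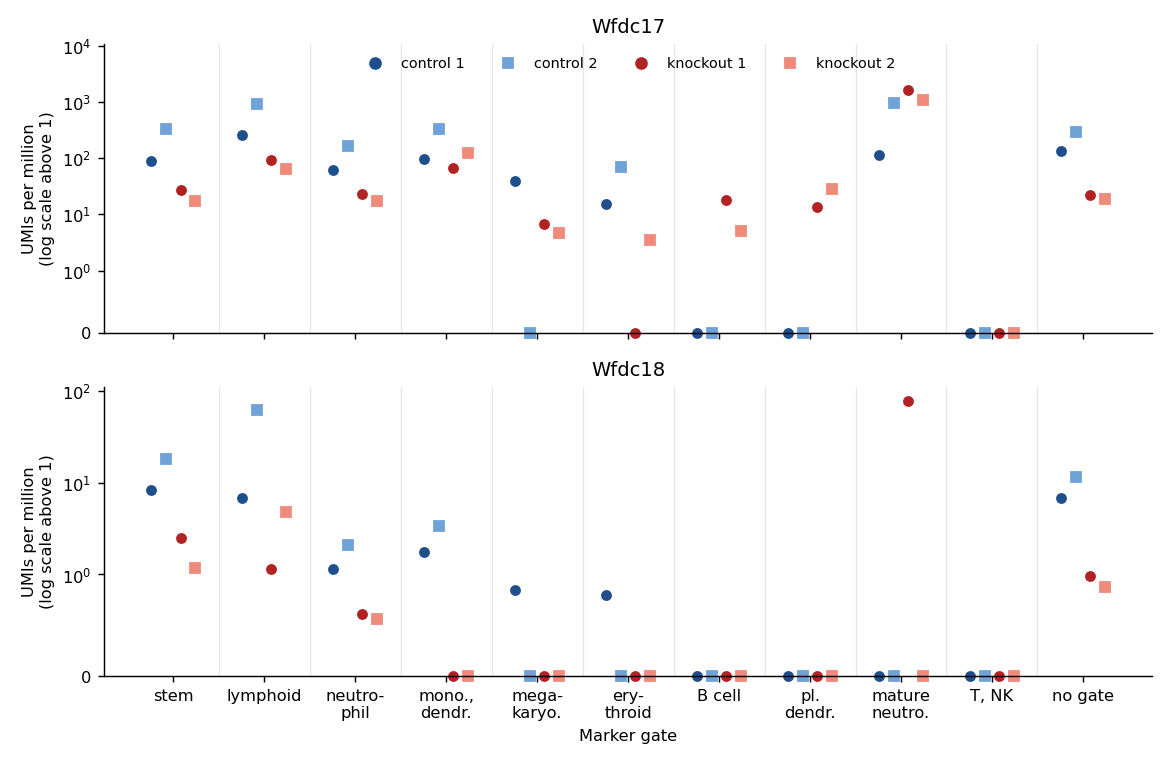
CPM (y axis, log scale above 1) of Wfdc17 and Wfdc18 in 10 marker gates and in cells of no gate, 1 point per library. Wfdc17 reaches 254 and 912 in the lymphoid gate of the controls and stays at or below 68.6 in the megakaryocyte and erythroid gates, and the knockouts (red) lie below the controls (blue) in the stem, lymphoid and neutrophil gates. The mature neutrophil points rest on 5 to 21 cells per library.

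Wfdc17 was also lower in the knockouts within gates, although cells of 1 gate did not hold the same marker levels in both genotypes, as the Elane values given further on show. Both knockouts lay below both controls in the stem, lymphoid, neutrophil and erythroid gates and among cells of no gate, with log2 fold changes of -3.33 ± 0.53, -2.98 ± 0.51, -2.52 ± 0.43, -3.83 ± 0.92 and -3.37 ± 0.36 (SE). This held for 26.4% of genes in the stem gate, 25.2% in the lymphoid gate, 22.2% in the neutrophil gate, 16.3% in the erythroid gate and 30.8% among cells of no gate, counting genes with at least 10 UMIs. With all kept barcodes Wfdc17 among cells of no gate moved from 295 to 168 CPM in control 2 and from 22.6 to 44.4 CPM in knockout 1, a log2 fold change of -2.19. In the monocyte and dendritic gate the genotypes overlapped (-1.38 ± 0.48 SE), and the value there was -0.21 without control 2. Without control 2 the values in the stem, lymphoid and neutrophil gates were -1.99, -1.70 and -1.59. The median over the 5 gates that could be fitted was -2.98. When the 6 gates with at least 20 cells per library were given equal weight, the libraries stood at 92.9, 303, 35.9 and 37.9 CPM. The control 2 excess was likewise present within gates, at 912 against 254 in the lymphoid gate and 334 against 87.3 in the stem gate. The mature neutrophil gate went the other way, with Wfdc17 at 113 and 948 CPM in the controls and 1640 and 1079 in the knockouts, from 5 and 8 knockout cells of which 2 and 3 had a UMI. The cells of this gate were not alike across libraries. Elane stood there at 1369, 0, 156 and 0 CPM, and the protease inhibitor Stfa1 at 11.9, 69.4, 1796 and 1603. The share of all genes with this order was not taken for this gate. In that gate Wfdc17 was higher than in other cells (log2 fold change 3.20 ± 0.68 SE, adjusted p = 0.000133, edgeR), in a comparison that called 2.99% of genes higher. Single cells held most of these UMIs in 3 libraries, 51 of 82 in control 2, 20 of 21 in knockout 1 and 27 of 33 in knockout 2. In control 1 the share of gate cells with a Wfdc17 UMI, 5 of 21 (23.8%), was below that of all its cells (33.9%).

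Wfdc21 had its highest level in the few cells of the mature neutrophil gate. In the controls most cells with a UMI lay in the neutrophil gate (106 of 131 and 17 of 32), unlike the knockouts (2 of 8 and 1 of 13). The mature neutrophil gate held 43 of 14041 cells and 55.4% of all Wfdc21 UMIs, and the neutrophil gate held a further 42.0%, while within control 1 the neutrophil gate held more (61.2% against 36.9%). In the mature neutrophil gate Wfdc21 stood at 923, 4938, 3436 and 3107 CPM, and 18 of 21, 7 of 9, 5 of 5 and 8 of 8 cells had a UMI. The log2 fold change against the other cells was 9.88 ± 0.86 (SE, adjusted p = 4.84e-28, edgeR), higher in 4 of 4 libraries. Levels of the 2 genotypes overlapped in that gate. In the neutrophil gate Wfdc21 stood at 8.78 and 40.2 CPM in the controls and 2.19 and 3.31 in the knockouts. It was higher there than in the other cells in 4 of 4 libraries (log2 fold change 0.56 ± 0.12 SE, adjusted p = 0.00394, edgeR, 24.0% of genes called higher). In knockout 1, however, the other cells stood at 2.11 CPM. A Wfdc21 UMI was found in 106 of 2760 and 17 of 258 control cells of that gate. In the knockouts only 2 of 375 and 1 of 442 cells had one, so their levels rest on these few cells. The megakaryocyte and erythroid gates had no Wfdc21 UMI in any library, with an exact 95% interval of the share of cells with a UMI that reached 1.96% in the 186 megakaryocyte-gate cells of control 1, and the lymphoid gate had 1.

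The 4 libraries had the same order for Wfdc21 over all cells and for the summed mature neutrophil markers, control 2 highest, then control 1, knockout 2 and knockout 1. The share of cells in the mature neutrophil gate did not follow this order. It was 0.268% in control 1, 0.75% in control 2, 0.315% in knockout 1 and 0.234% in knockout 2. In control 2 a single cell held 199 of 676 Wfdc21 UMIs, and in knockout 1 and knockout 2 single cells held 22 of 70 and 49 of 135. With cells that carried 3 or more mature neutrophil, macrophage, T and NK or B cell markers left out, the log2 fold change was -5.16 in place of -3.22. The part of the mature neutrophil share in the Wfdc21 difference was not tested.

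Wfdc2 was a gene of the stem gate. It stood there at 21.4, 28.1, 26.9 and 24.5 CPM, from 41, 60, 96 and 147 UMIs, and the genotypes overlapped (log2 fold change 0.02 ± 0.23 SE). Against the other cells the log2 fold change was 2.39 ± 0.14 (SE, adjusted p = 5.46e-06, edgeR, higher in 4 of 4 libraries), in a comparison that called 16.7% of genes higher. The stem gate held 35.3% of all Wfdc2 UMIs with 1247 of 14041 cells, and cells of no gate held 47.3%. In the neutrophil gate Wfdc2 stood at 0.956, 0.873, 2.98 and 1.89 CPM and was lower than elsewhere (log2 fold change -2.22 ± 0.20 SE, adjusted p = 9.52e-05, edgeR). The stem gate held 4.83% of control 1 cells, against 16.4%, 13.3% and 13.5% in the other libraries, and control 1 also had the lowest Wfdc2 over all cells. These shares move with depth, because a gate needs UMIs of several markers. Control 1 was the shallowest library, with a median of 6251 UMIs per cell against 13175.5, 17707 and 14398.5. After thinning to equal depth the gate held 116, 36, 23 and 70 cells, in place of 378, 197, 211 and 461. Control 1 thus lost the smallest part of its stem-gate cells. The part of depth in the low share, and of this share in the Wfdc2 difference, was not tested.

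**Figure D3:**
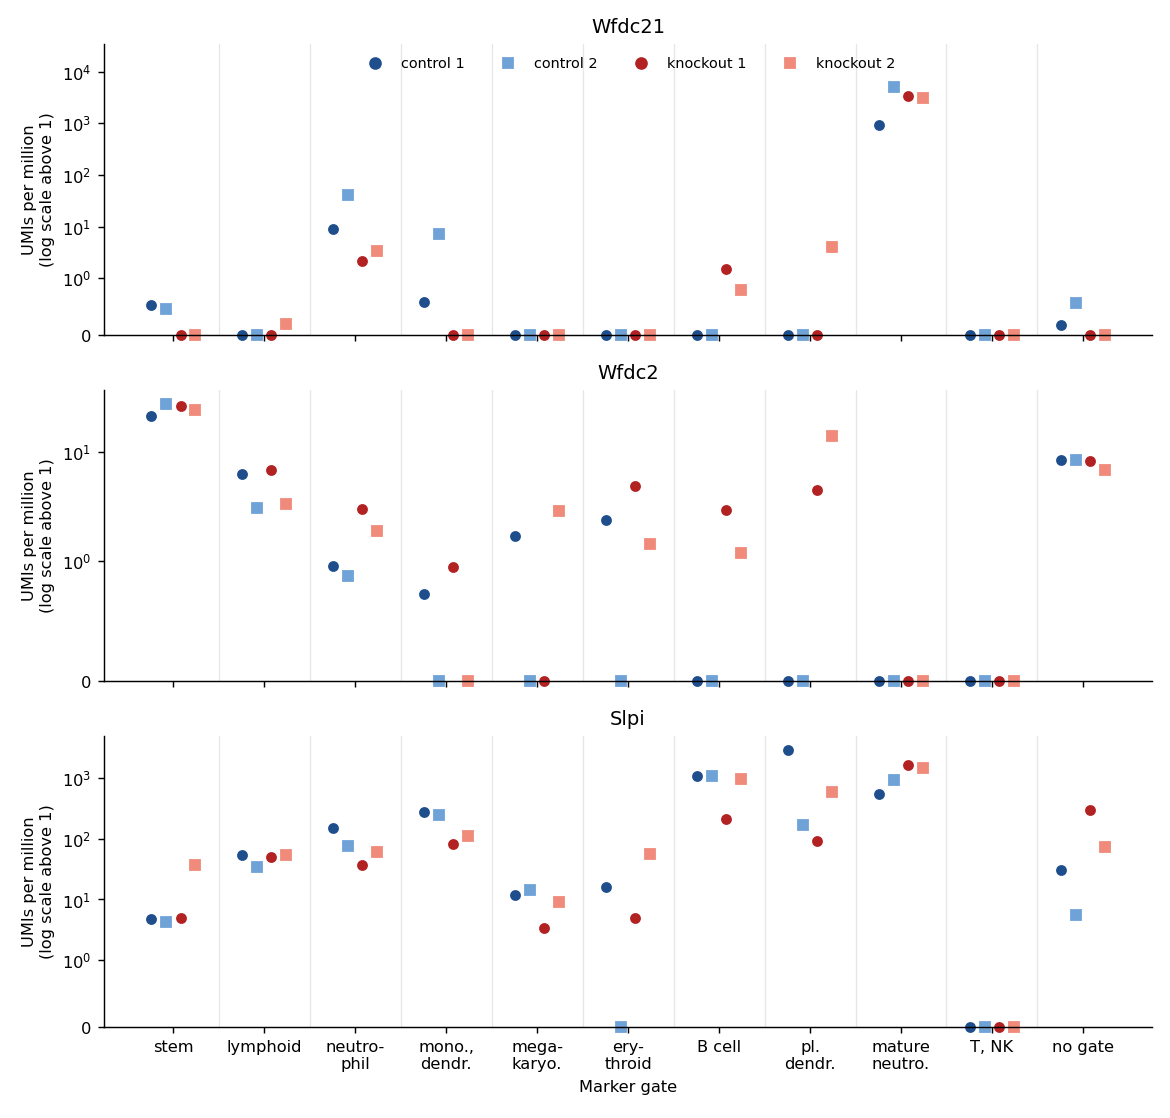
CPM (y axis, log scale above 1) of Wfdc21, Wfdc2 and Slpi in 10 marker gates and in cells of no gate, 1 point per library. Wfdc21 lies between 923 and 4938 in the mature neutrophil gate and at 0 in the megakaryocyte and erythroid gates, Wfdc2 lies between 21.4 and 28.1 in the stem gate, and Slpi lies between 4.21 and 37.5 in the stem gate and between 554 and 1640.1 in the mature neutrophil gate.

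Slpi had a wider pattern. In the controls most of its UMIs lay in the neutrophil gate (61.9% and 36.6%) and the monocyte and dendritic gate (26.2% and 42.4%). In the latter its mean level was 179 CPM, but the difference from other cells did not pass the threshold (log2 fold change 1.09 ± 0.36 SE, adjusted p = 0.0543, edgeR), while it passed under 4 alternatives. That gate stood at 276, 247, 81.6 and 112 CPM, against 102, 41.2, 139 and 111 in the other cells. In the knockouts the level of the other cells also depended on the cells with plasma cell markers taken up below. Slpi was low in the stem gate at 4.71, 4.21, 5.03 and 37.5 CPM (log2 fold change against other cells -3.16 ± 0.41 SE, adjusted p = 0.000558, edgeR). In the megakaryocyte gate it was also low, at 11.9, 14.6, 3.42 and 9.16 (-3.65 ± 0.18 SE, adjusted p = 7.47e-16, edgeR). It was also lower in the lymphoid gate than elsewhere, at 53.5, 34.6, 50.7 and 54.1 CPM (-1.19 ± 0.08 SE, adjusted p = 3.18e-07, edgeR, 7.83% of genes called lower). It was high in the mature neutrophil gate, at 554, 937, 1640.1 and 1504 CPM (3.22 ± 0.61 SE, adjusted p = 8.41e-06, edgeR). In the lymphoid gate of the controls Slpi was thus lower where Wfdc17 was higher. In the knockouts the order depended on cells with plasma cell markers, described further on, none of which fell in the lymphoid gate. Without them all remaining cells, those of the lymphoid gate included, stood at 118, 61.8, 24.3 and 20.5 Slpi CPM. Against these levels the lymphoid gate was lower in both controls and higher in both knockouts. In the B cell gate Slpi stood at 1105, 1096, 215 and 986 CPM (2.71 ± 0.29 SE, adjusted p = 2.01e-18, edgeR, 7.38% of genes called higher), but only 1 of 8 and 1 of 5 control cells and 11 of 109 and 19 of 304 knockout cells had a UMI. A single cell of knockout 2 held 1201 of the 2488 Slpi UMIs of its B cell gate. With all kept barcodes the controls stood at 654 and 249 CPM. In the plasmacytoid dendritic gate, with 6, 2, 39 and 75 cells, Slpi stood at 2983, 171, 92.7 and 591 CPM. It was higher there than elsewhere in 3 of 4 libraries (1.86 ± 0.40 SE, adjusted p = 0.000161, edgeR, 4.73% of genes called higher). Of the 122 cells of that gate, 84 also passed another gate, so these values are not those of 1 cell type alone. In control 1 a single cell held 71 of the 93 Slpi UMIs of that gate, and in knockout 2 a single cell held 139 of 292. With all kept barcodes control 2 stood at 113 CPM in that gate.

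In the neutrophil gate and in the monocyte and dendritic gate Slpi was lower in the knockouts. The neutrophil gate stood at 153 and 76.7 CPM in the controls and 37.5 and 61.2 in the knockouts (log2 fold change -1.27 ± 0.31 SE). In knockout 2 a single cell held 320 of the 647 Slpi UMIs of that gate. The monocyte and dendritic gate stood at 276 and 247 in the controls and 81.6 and 112 in the knockouts (-1.55 ± 0.24 SE). Of its 816 cells, 522 also passed another gate, and the knockouts had only 43 and 26 cells. Elane, a neutrophil marker, stood there at 1756 and 2480 CPM in the controls and 20.9 and 10.2 in the knockouts. The cells compared in this gate were thus not alike in marker levels. The groups did not overlap in either gate, as was so for 22.2% of genes in the neutrophil gate and 18.9% in the monocyte and dendritic gate, each with both knockouts below. Over all cells they overlapped. The neutrophil-gate value was -0.74 without control 1 and -0.56 without cells that passed several gates. In the megakaryocyte gate, from 14, 5, 2 and 16 UMIs, both knockouts were also below (log2 fold change -0.73 ± 0.57 SE), as were 19.5% of genes there. The stem gate, the cells of no gate and the mature neutrophil gate went the other way. For the mature neutrophil gate, whose cells were not alike in Elane across libraries, no share over all genes was taken. Cells of no gate stood at 30.4 and 5.46 CPM in the controls against 298 and 72.9 in the knockouts, and both knockouts were above both controls for 25.6% of genes there and for 25.9% in the stem gate. With all kept barcodes control 2 rose from 5.46 to 49.5 CPM among cells of no gate and from 4.21 to 13.4 CPM in the stem gate, where the genotypes then overlapped.

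Slpi UMIs were concentrated in few cells of the knockouts. In knockout 1 a single cell of no gate held 2678 of 4496 Slpi UMIs (59.6%), and in knockout 2 a single cell of the B cell gate held 1201 of 6001 (20.0%). The top cells of control 1 and control 2 held 71 of 7233 and 56 of 1201. After the cells with the most Slpi had been seen to carry genes of plasma cells, the antibody-secreting end stage of B cells, a gate of 8 such genes (Jchain, Mzb1, Derl3, Pou2af1, Xbp1, Tnfrsf17, Prdm1 and Irf4) was drawn by the same rule, so what follows is a description. It held 17 and 7 control cells (0.217% and 0.583%) and 63 and 120 knockout cells (3.96% and 3.51%). Of them, 2, 3, 20 and 76 were cells of the B cell gate and 2, 2, 4 and 4 of the plasmacytoid dendritic gate. All cells of the plasma gate together held 4.11% and 3.16% of the Slpi UMIs of the controls and 82.8% and 82.2% of those of the knockouts. The other cells stood at 118 and 61.8 Slpi CPM in the controls and 24.3 and 20.5 in the knockouts, a log2 fold change of -2.04 ± 0.29 (SE) in place of 0.38. Summed markers of the B cell list stood at 48.0, 53.4, 149 and 445 CPM over all cells, also higher in the knockouts. Without these cells the log2 fold changes of Wfdc17, Wfdc18, Wfdc21 and Wfdc2 were -3.13, -3.11, -3.17 and 0.54.

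**Figure D4:**
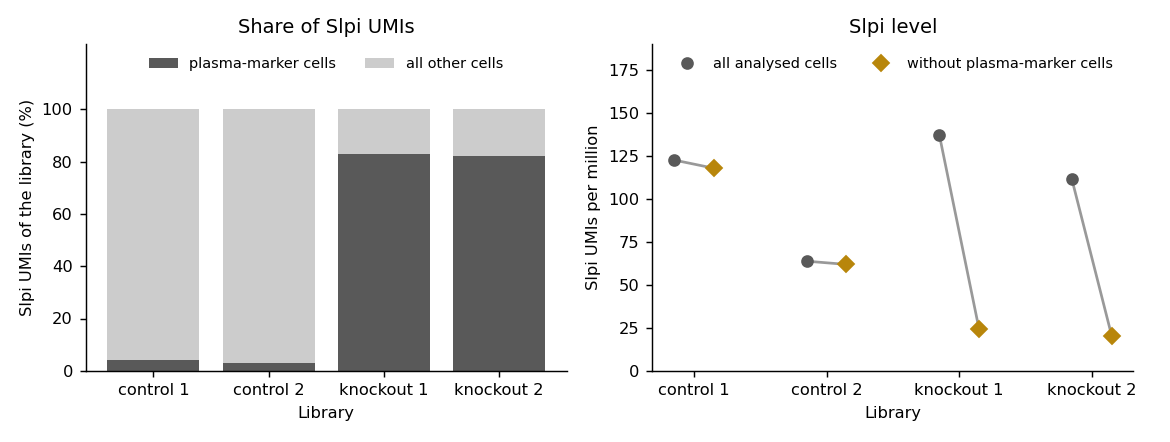
On the left, the percent of each library's Slpi UMIs that lay in cells with plasma cell markers (dark) and in all other cells (light). On the right, Slpi in CPM over all analysed cells (circles) and without the plasma-marker cells (diamonds): the knockouts drop from 137 and 111 to 24.3 and 20.5, below the controls at 118 and 61.8.

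Granule serine proteases, among them those that Slpi is known to block, were lower in the knockouts. Of the list of 4 granule serine proteases and their activator Ctsc, all 5 were tested over all cells, 4 passed the threshold as lower and none as higher, where 2.07% of all genes were called lower and 1.37% higher. The list was chosen with earlier results of these data known, so this count and the adjusted p values of its genes are a description. The list's median log2 fold change was -1.85, beside -0.0080 over all genes tested. Elane, neutrophil elastase, stood at 1831 and 1067 CPM in the controls and 44.8 and 24.9 in the knockouts (log2 fold change -5.42 ± 0.40 SE, adjusted p = 0.00626, edgeR). Prtn3, proteinase 3, had a log2 fold change of -2.50 ± 0.35 (SE, adjusted p = 0.0192, edgeR). Ctsg, cathepsin G, had -1.85 ± 0.23 (adjusted p = 0.0126), and Prss57 had -1.11 ± 0.19 (adjusted p = 0.0331, edgeR), a call lost without knockout 1 (adjusted p = 0.0645) and without mature cells (0.0585). Ctsc, which trims these proteases into their active form, did not pass (-0.06 ± 0.21 SE, adjusted p = 0.905, edgeR). Elane also stood lower among neutrophil-gate cells, at 3251 and 2611 CPM in the controls and 124 and 114 in the knockouts. Summed neutrophil markers, to which Elane, Prtn3 and Ctsg belong, were 7084, 4545, 1172 and 700 CPM over all cells.

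Of 16 other protease inhibitors, 13 were tested, 2 were called lower and none higher, with a median log2 fold change of -0.34. This list and that of other WAP genes were also chosen with earlier results of these data known. Cst7, cystatin F, an inhibitor of cysteine cathepsins, stood at 64.3, 39.6, 23.3 and 20.9 CPM (log2 fold change -1.27 ± 0.23 SE, adjusted p = 0.0355, edgeR). Serpinb1a, an inhibitor of neutrophil elastase, cathepsin G and proteinase 3, stood at 268, 258, 158 and 139 (log2 fold change -0.86 ± 0.15 SE, adjusted p = 0.0330, edgeR). The Cst7 call was lost without mature cells (adjusted p = 0.0653), and the Serpinb1a call without knockout 1 (0.126) and without knockout 2 (0.337). Of 17 other WAP genes, 8 had a UMI in any cell and only Wfikkn1 and Wfikkn2 had enough for a test. Wfikkn1 stood at 0.711, 0.531, 0.672 and 1.00 CPM and Wfikkn2 at 0.559, 0.478, 1.04 and 0.947, and neither passed (adjusted p = 0.636 and 0.224, edgeR).

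On the chromosome, the decrease was not limited to WAP genes. The 2 counted genes to the left of Wfdc17 are Ccl4 and Ccl3, chemokines that draw in monocytes and lymphocytes, and both were called lower in the knockouts. Ccl3 (chr11:83647844-83649355) stood at 119 and 197 CPM in the controls and 11.7 and 16.0 in the knockouts (log2 fold change -3.55 ± 0.30 SE, adjusted p = 0.00637, edgeR). Ccl4 (chr11:83662584-83664683) stood at 100.6 and 193 against 22.5 and 28.3 (-2.58 ± 0.33 SE, adjusted p = 0.0146, edgeR). Both calls passed under all 13 alternatives, with log2 fold changes between -3.89 and -3.003 for Ccl3 and between -2.99 and -2.001 for Ccl4. On the other side, Heatr6 (chr11:83753696-83783754), 1053 bases beyond Wfdc21, stood at 44.3, 32.3, 40.2 and 42.5 CPM and did not pass (0.07 ± 0.17 SE, adjusted p = 0.858, edgeR).

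**Figure D5:**
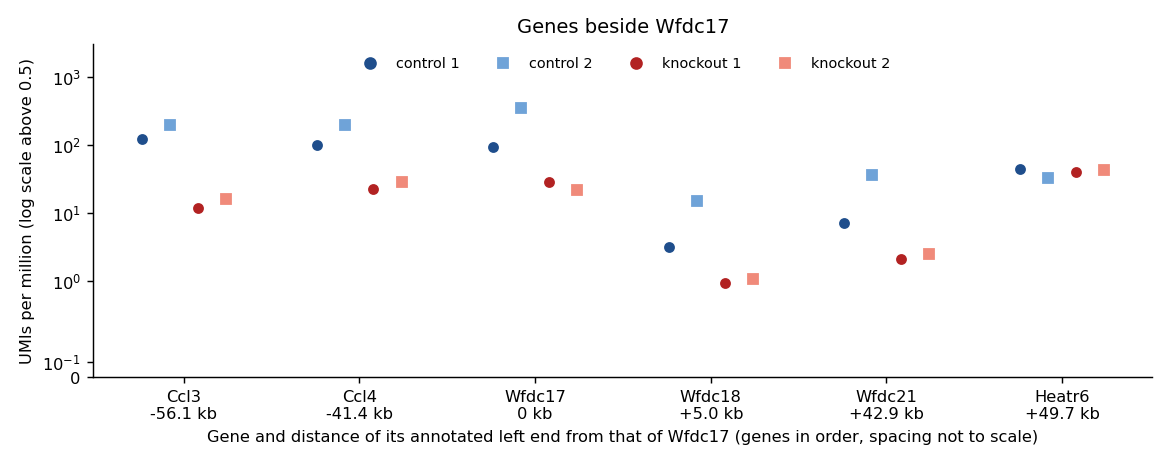
CPM (y axis, log scale above 0.5) of the counted genes beside Wfdc17, in chromosomal order with the distance of each annotated left end from that of Wfdc17, 1 point per library over all analysed cells. The 2 knockouts (red) lie below the 2 controls (blue) for the 5 genes from Ccl3 to Wfdc21, and the libraries overlap for Heatr6.

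Across gates Ccl3 and Ccl4 were also counted in lymphoid-gate cells, but not only there. Mean Ccl3 was 153 CPM in the lymphoid gate, 132 in the monocyte and dendritic gate and 204 in a gate of basophil and mast cell markers (52 cells). In that small gate the decrease was absent, with Ccl3 at 149, 65.7, 161 and 441 CPM. Mean Ccl4 was 131 CPM in the lymphoid gate and 342 in the gate of T and NK cell markers (34 cells). In the lymphoid gate Ccl3 stood at 219, 340, 21.1 and 32.7 CPM and in the erythroid gate at 25.4, 15.8, 0 and 0. In the lymphoid gate Ccl4 stood at 174, 267, 31.9 and 50.1. In the mature neutrophil gate, where Wfdc17 was high, Ccl3 stood at 29.8, 11.6, 0 and 32.7. Around Slpi and Wfdc2 all counted neighbours but Pigt were at or close to 0: Svs5, Svs6, Spint3 and Wfdc6a had no UMI, Rbpjl had 2, Gm14317 had 3 or fewer in any library and Matn4 had 25 or fewer. Pigt, to the left of Wfdc2, stood at 94.1, 60.8, 74.7 and 83.7 CPM and did not pass (log2 fold change -0.0058 ± 0.21 SE, adjusted p = 0.991, edgeR), and Gm12576, to the right of Heatr6, had no UMI.

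The genes whose levels were most like those of Wfdc17 were taken over 30 sums of a gate in a library with at least 20 cells, from 10 gates, by Pearson's correlation of log2(CPM + 5) among 5984 genes with a mean of at least 20 CPM. The sums share libraries and depth, and no p is given. They were Plppr3 (r = 0.806), Rasa4 (0.802), Flt3 (0.801), Znrf1 (0.800) and Fbxw4 (0.782). Flt3, a cytokine receptor of lymphoid-primed progenitors, is a marker of the lymphoid gate, and within libraries its correlation was 0.922. Rasa4 averaged 57.4 CPM in the lymphoid gate and 5.29 in the erythroid gate. Among the WAP genes the correlation with Wfdc17 was 0.690 for Wfdc18, 0.247 for Wfdc21, 0.130 for Wfdc2 and 0.123 for Slpi. Within libraries these were 0.584, 0.120, 0.238 and 0.293.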

How the data were processed

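The 4 libraries of sorted LSK cells were 2 control and 2 Nup358 knockout, grouped by the titles in the labels. Per the labels and the study's methods, the authors counted UMIs with Cell Ranger 3.1 on mm10 (GRCm38) and deposited whole-number counts per gene and barcode without normalization. The 5 genes and the gene lists were chosen with earlier results of these data known, and the gate threshold was set after the counts were seen.

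Barcodes with under 200 genes or over 10% mitochondrial UMIs were dropped, and copied barcodes (3 or more times the UMIs in another library) were left out. Doublets were not removed. Another gate was also passed by 1208 of 3835 neutrophil-gate cells, 522 of 816 monocyte and dendritic gate cells and 84 of 122 plasmacytoid dendritic gate cells. UMIs were summed per library, or per library and gate, and fitted with edgeR 4.0.16 (R 4.3.3; filterByExpr, trimmed mean of M-values, quasi-likelihood test, adjusted p under 0.05). A standard error is the log2 fold change divided by the root of F. DESeq2 1.42.0 was an alternative. Intervals of shares are Clopper-Pearson and cover counting error only. Named genes were the 5 genes, listed relatives and targets, 5 genes most like Wfdc17 and the 2 counted neighbours on each side. On simulated counts at the real means of 13779 genes, 85 of 100 genes changed 4-fold and 52 of 100 changed 2-fold were recovered between genotypes, with 11 false calls.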

Additional observations from a re-analysis of the deposited data

Results flagged for a closer look

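Slpi differed in direction between gates under the same comparison of knockout and control. Both knockout libraries lay below both controls in the neutrophil gate (log2 fold change -1.27), the monocyte and dendritic gate (-1.55) and the megakaryocyte gate (-0.73), and above both in the stem gate (2.33). Over all genes with at least 10 UMIs in a gate, both knockouts lay below for 22.2%, 18.9% and 19.5% in these 3 gates and above for 25.9% in the stem gate, so such an order is common. The difference between gates was not tested. In the stem gate 1 cell of knockout 2 held 196 of that library's 225 stem-gate Slpi UMIs, and knockout 1 stood at 5.03 CPM against 4.71 and 4.21 in the controls, of which control 2 stood at 13.4 CPM with all kept barcodes, so that the genotypes overlapped. The stem-gate value was 0.16 without knockout 2 and 0.14 without plasma-marker cells, the latter chosen after seeing the data. The neutrophil-gate value was -0.74 without control 1, -0.56 without cells that passed several gates and -1.81 without plasma-marker cells, and the megakaryocyte-gate value was -0.43 without knockout 1. No group had 4 or more libraries, so single libraries could not be tested as outliers.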

How the results depend on the processing

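Of 427 values recomputed under the alternatives, 374 kept their direction and their side of the threshold or moved by less than the replicate spread. The count of genes called between genotypes was 474 and was 946 by DESeq2, 1933 without a filter on low counts and between 372 and 2890 with 1 library left out, of which 2890 without control 1 and 1932 without control 2. The replicate numbers are only names: the correlation of deviations was -0.184, the fit with the number as a replicate block called 1257 genes and the crossed pairing 1735, and the replicate block changed no call of the 8 called genes named here. With the replicate block Wfdc17 had a log2 fold change of -2.87. With 1 library left out, where a lone library is assumed to vary like the other group, the Wfdc17 log2 fold change over all cells lay between -3.84 and -1.90, the lowest in size without control 2. The Slpi log2 fold change over all cells turned to -0.85 with mature cells left out, and, in alternatives chosen after seeing the data, to -2.04 without plasma-marker cells and to -0.37 without the top Slpi cell of each library. The Slpi value was -0.48 in the lymphoid gate with 1 more marker needed and -0.55 among cells of no gate without plasma-marker cells. In the neutrophil gate against other cells, Slpi turned from -0.39 to 0.19 without knockout 1, with values from -0.91 to 0.19 when 1 library was left out, and to 0.76 after thinning (adjusted p = 0.0493). The cause was not tested. The gates of 21 to 26 cells limit what the erythroid, megakaryocyte and monocyte values can show.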
